A study of Homo sapiens with 32 samples.

Results

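The peaks described here were depleted, not enriched, in the m6A immunoprecipitate at every stage of β-cell differentiation. They were chosen on that ratio among the merged m6A-seq peaks of genes with 1 to 9 peaks. A peak counted as depleted when log2((IP CPM + 1)/(input CPM + 1)) was -1 or less in at least 14 of the 16 RNA preparations, its start lay more than 150 bases from the first base of the gene and its mean input level was at least 5 CPM. CPM are counts scaled to a common library total (counts per 1e6), and symbols that start with MT- were left out. Of the 26104 merged peaks in 7986 genes, 12294 peaks in 5626 genes met the other limits, and 2582 of these peaks in 1177 genes were depleted, which is 21.0%. The cells were H1 and MEL1 human embryonic stem cells, both established lines, and their labels name no genetic change. They were taken while undifferentiated (S0) and at 3 later stages of directed differentiation. These were S3, posterior foregut, S4, progenitors of the pancreas, and S6, β-like cells that are still immature. Each line and stage had 2 replicates, described in the study as independent, and each RNA preparation gave an input library and an IP library, so there were 4 preparations per stage and 32 libraries. The cultures were not sorted, so fewer cells of a type and less RNA per cell cannot be told apart in any level given here.

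In N6-methyladenosine (m6A), a methyl group sits on the adenosine base of an RNA. In mRNA the METTL3-METTL14 enzyme pair places it, mostly near stop codons, in 3′ UTRs and in long internal exons. In m6A-seq, fragmented mRNA is pulled down with an antibody against the mark, and the IP is compared with the input, which reports the RNA level itself. Transcripts of housekeeping genes, such as those of ribosomal proteins and glycolytic enzymes, are known to carry little of the mark, and RNA bound without it also enters an IP. A log2 ratio of 0 means that a peak took the same share of IP and input reads, so the ratio is relative to the other RNA of the library and gives no absolute amount of methylation.

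The input libraries held 2652830 to 6879256 reads in peaks (median 4318760), and the IP libraries 2378881 to 15674899 (median 13100407), of which both MEL1 S4 IP libraries were the smallest. The depleted peaks took 19.5% to 24.9% of the input reads and 1.85% to 3.39% of the IP reads. A depleted peak had a median of 47 to 103 input reads per library. It had 3 to 34 IP reads, and in the MEL1 S4 IP libraries 1076 depleted peaks of replicate 1 and 989 of replicate 2 had none. The stage labels were checked against fixed markers in the input. All 5 pluripotency markers with a peak (of 8, with POU5F1, NANOG and TDGF1 without one) were highest at S0, all 6 foregut markers were highest at S3, and 3 of 7 β-cell markers had a peak and were highest at S6 (INS, IAPP, NEUROD1 and ABCC8 had none). Only 1 of the 5 pancreatic progenitor markers with a peak was highest at S4. Markers of liver cells summed to 1.09 to 15.1 CPM at S0, 358 to 33900 at S3, 155 to 49700 at S4, then 413 to 6170 at S6 (ALB and SERPINA1 had no peak). Neural markers reached 453 to 4480 CPM at S6 against 59.6 to 103 at S0 (TUBB3 and MAP2 had no peak).

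The choice of members fixed the sign of the ratio, so its size is given without a test. The median over the 16 preparations had a median of -2.72 among the depleted peaks, with quartiles of -3.35 and -2.25, and reached -1.21 at the highest. The 9712 other peaks that met the level, start and row limits had a median of 0.67. A total of 1314 depleted peaks (50.9%) were at -1 or less in all 16 preparations, 660 in 15 and 608 in 14. Averaged within stages, 2509 of the 2582 (97.2%) were at -1 or less in all 4 stages and 0 had a stage mean above 0, although 306 (11.9%) were above 0 in at least 1 preparation. The peaks nearest the limit, by their 14th lowest ratio, were NBPF12 6301 (-1.0013), ESRP1 3601 (-1.0031) and NCOA4 1780 (-1.0032) inside it. HK2 4201 (-0.9982), TSR1 1796 (-0.9977) and KIF2C 3351 (-0.9977) lay just outside. The number after a symbol is the start of the peak in bases within its gene, as the table gives it.

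**Figure D1:**
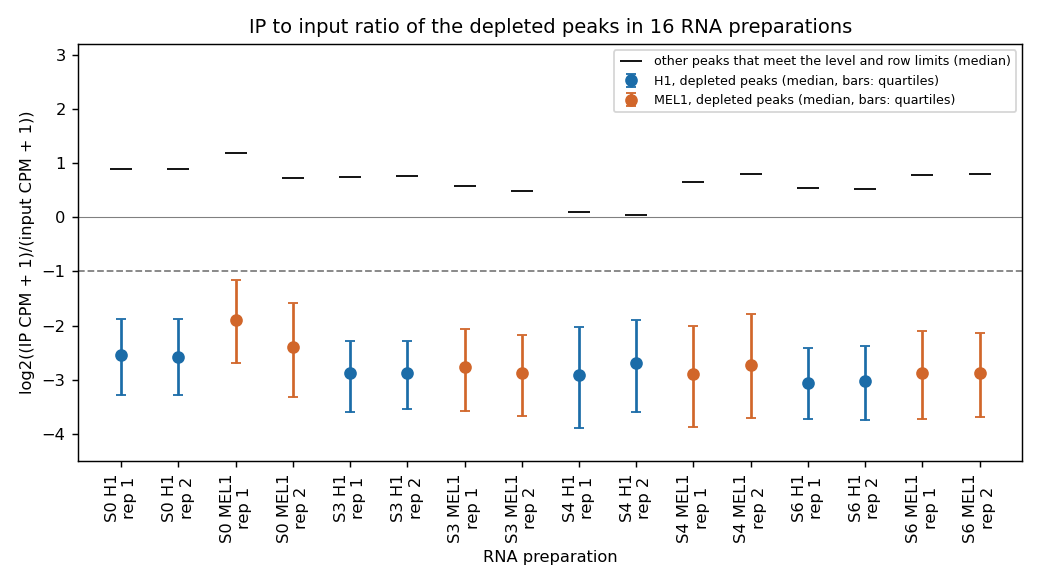
Log2 ratio of IP to input of the 2582 depleted peaks in each of the 16 preparations (points: median, bars: quartiles, blue for H1 and orange for MEL1), with the median of the 9712 other peaks as black dashes and the limit of -1 as a dashed line. The medians of the depleted peaks lie between -3.06 (H1 S6 replicate 1) and -1.89 (MEL1 S0 replicate 1).

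Over the whole list, the median ratio was least negative in the undifferentiated cells, which is a description, since the choice of peaks used this ratio. The median ratio of the depleted peaks averaged -2.35 ± 0.32 at S0, -2.85 ± 0.06 at S3, -2.81 ± 0.11 at S4, then -2.96 ± 0.10 at S6 (SD over the medians of 4 preparations each). The preparations spanned -2.58 to -1.89 at S0, -2.88 to -2.76 at S3, -2.92 to -2.70 at S4 and -3.06 to -2.87 at S6. The gap between S0 and S4 was narrow, and no conclusion about the stages is drawn from it. The pluripotency peaks went the other way, from -4.05 at S0 to -2.46 at S6. The medians of the 9712 other peaks were also high at S0, at 0.72 to 1.18, against 0.48 to 0.76 at S3, 0.05 to 0.80 at S4 and 0.52 to 0.79 at S6. MEL1 S0 replicate 1 stood apart with 509 of the depleted peaks above -1 and 128 above 0, and its input held the largest share of mitochondrially encoded reads (41.0%, against 11.6% to 32.5% in the other input libraries). Their part in the difference was not tested. As a reference from RNA that was left out of the list, the 47 mitochondrially encoded peaks of at least 5 CPM had a median ratio of -4.69 (range -6.73 to -3.61).

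Among the lowest ratios were those in transcripts of housekeeping genes and their pseudogenes. FTL 451, in the transcript of the ferritin light chain that stores iron, had a median of -6.40, and its ratios ran from -7.69 in MEL1 S4 replicate 1 to -5.43 in H1 S0 replicate 2. Its input level was 1330, 1320, 738 and 967 CPM at S0 (H1 replicates 1 and 2, then MEL1 replicates 1 and 2), 676, 694, 2880 and 2670 at S3, 729, 616, 2520 and 2120 at S4, then 955, 946, 792 and 767 at S6. MEL1 was higher than H1 at S3 and S4 and lower at S0 and S6. Its IP level averaged 20.1 ± 8.2, 14.6 ± 10, 10.8 ± 3.99 and 11.7 ± 4.4 CPM at the 4 stages (SD, n = 4), and the IP stayed below the input in each of the 16 preparations. Low ratios were also found in pseudogenes, at MTCO1P12 1101 (-6.53) and EEF1A1P5 801 (-6.41), whose reads cannot be told apart with certainty from those of the genes they were copied from. GAPDH 1951, from the glycolytic enzyme that oxidizes glyceraldehyde 3-phosphate, was at -5.51.

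Depleted peaks were more frequent at high input levels. The share of peaks that were depleted was 15.6% at 5 to 10 CPM (617 of 3955), 20.4% at 10 to 30 CPM, 24.1% at 30 to 100 CPM, 37.0% at 100 to 1000 CPM and 72.4% at 1000 CPM or more (42 of 58). The median ratio of the depleted peaks fell along the same classes from -2.32 to -4.39. The pseudocount bounds the ratio at low levels, since a peak of 5 CPM with no IP reads reaches -2.58 at the lowest. The mean input level had a median of 20.8 CPM in the depleted peaks and 14.4 CPM in the others, and levels of different peaks are not per length, because the table gives no peak widths.

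They also lay nearer to the start of the gene and had more neighbours. The start of the depleted peaks had a median of 1701 bases (quartiles 851 and 3101), against 2251 (1151 and 3972.25) for the other peaks. Peaks that started within the first 500 bases were depleted in 28.3% of cases, and the share was 26.3%, 23.0%, 20.3% and 13.7% in the successive classes up to more than 4000 bases. Inner peaks, with another peak of the gene on either side, made up 57.6% of the depleted peaks and 42.9% of the others, first peaks 14.9% and 20.4%, last peaks 22.7% and 25.3%, and only peaks 4.76% and 11.4%. Of the genes' single peaks, 9.96% were depleted, compared with 37.5% of the peaks in genes with 9. The nearest other peak of the gene started a median of 300 bases away, against 350 for the others.

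**Figure D2:**
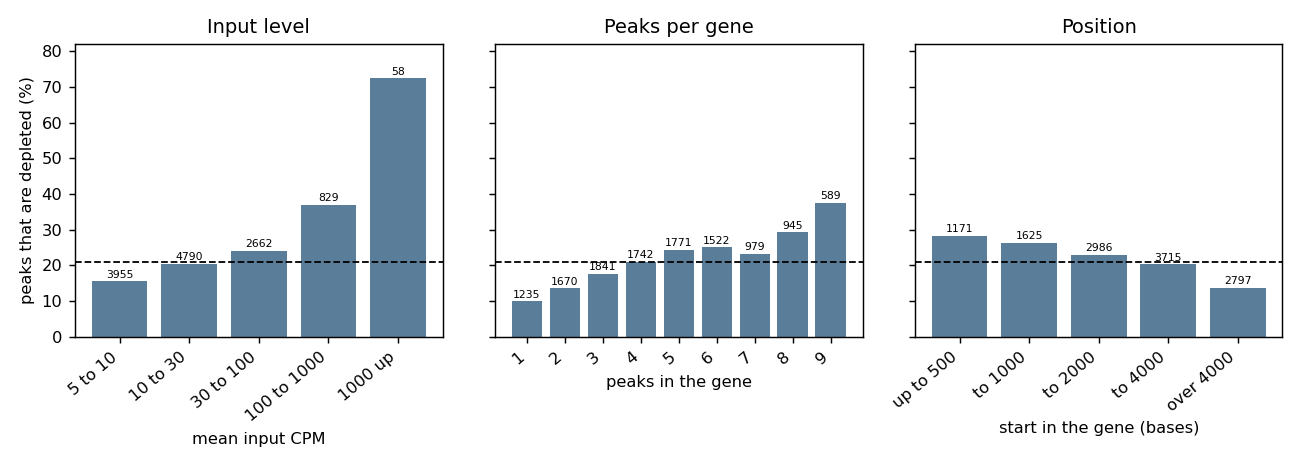
Share of peaks that are depleted (%), by mean input level in CPM, by the number of peaks in the gene and by start within the gene in bases, with the number of peaks in each class above its bar and the share over all 12294 peaks (21.0%) as a dashed line. The share rises from 15.6% to 72.4% with the level and falls from 28.3% to 13.7% with the distance of the start.

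In some genes every peak was depleted. Of the 1177 genes, 620 held at least 2 depleted peaks and 557 held 1. The genes with no other peak than depleted ones numbered 248, of which 123 had a single peak and 125 had more. HSP90AA1, the inducible cytosolic HSP90, was depleted in 9 of 9 peaks. ACLY, the enzyme that makes cytosolic acetyl-CoA from citrate, and CDK11B were depleted in 8 of 8, as were LIN28A, the RNA-binding protein of pluripotent cells, IMPDH2, which makes guanine nucleotides, and IRAK1. GAPDH and HSP90AB1 were depleted in 7 of 7. The remaining 2403 peaks of the 1177 genes had a median ratio of -1.32, and 470 of them (19.6%) had a median above 0.

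A minority of these genes carried an enriched peak beside the depleted one. In 338 of the 1177 genes (28.7%) at least 1 peak had a median ratio above 0, and in 80 (6.80%) a peak was at 1 or more in at least 14 preparations. Of the 615 depleted peaks in those 338 genes, 286 lay before the most enriched peak and 329 after it, at a median distance of 1400 bases between starts. The widest contrast was in NECTIN2, a cell adhesion molecule, where the depleted peak at 751 had a median ratio of -4.40 (range -5.97 to -1.80) and the peak that started 900 bases further on, at 1651, had 2.29 (1.54 to 2.66). The ranges of the 2 peaks did not overlap. U2AF2, the large subunit of the splicing factor that binds the polypyrimidine tract, had -4.15 at 1601 and 2.23 at base 1. B4GALT5, which makes lactosylceramide, had -3.52 at 3973 and 2.45 at 2973. AGRN, the basement membrane proteoglycan agrin, had -3.78 at 3051 and 2.09 at 701. In VCP, an ATPase that extracts ubiquitylated proteins, the depleted peak was at -5.14 and the other at 0.83, with 7 of 16 preparations at 1 or more. These genes were picked for the size of this difference, which therefore carries no test. Positions lie within the gene and no base sequence of a peak was read here.

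**Figure D3:**
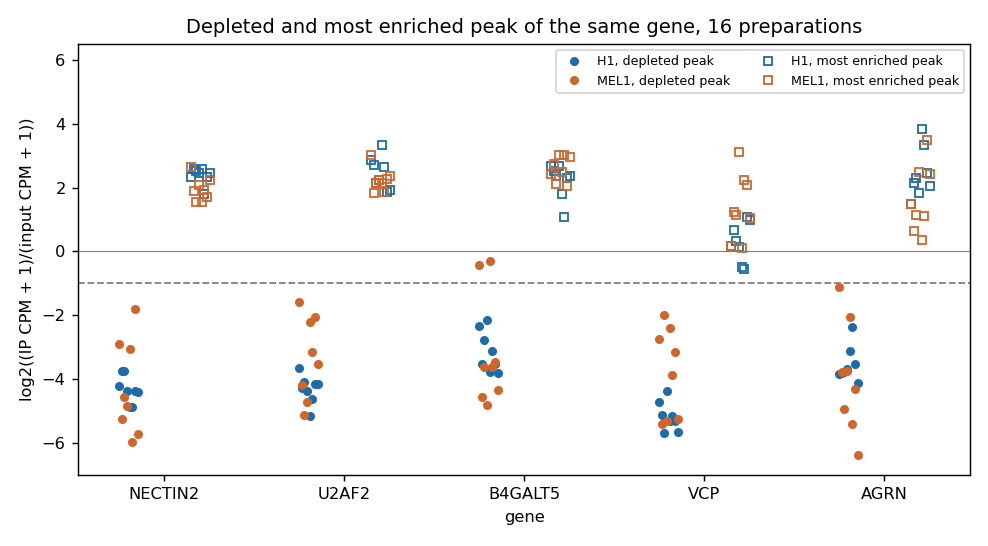
Log2 ratio of IP to input of the depleted peak (filled circles) and of the most enriched peak (open squares) of the same gene in 16 preparations, blue for H1 and orange for MEL1, with the limit of -1 as a dashed line. In NECTIN2 the depleted peak spans -5.97 to -1.80 and the enriched peak 1.54 to 2.66.

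By transcript type, 2381 of the depleted peaks (92.2%) lay in protein-coding genes, 62 in 35 pseudogenes and 26 in 13 long noncoding RNA genes, and 111 could not be matched to a type. RNase MRP RNA and RNase P RNA, the RNA parts of enzymes that process other RNAs, held 1 each. Pseudogenes took 12.6% of the input reads of the depleted peaks, and 9 peaks in nuclear copies of mitochondrial genes took 5.59%. Reads of such copies, of 40 peaks under readthrough symbols that join neighbouring genes, and of overlapping genes may be shared with other loci, since the strand setting of the counting was not stated. No depleted peak had the same counts as another peak in all 32 libraries.

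Gene groups differed widely in how many of their peaks were depleted. The share is over the peaks that met the level, start and row limits, while counts for a named gene are over all of its peaks. Glycolysis was highest, with 26 of 32 peaks (81.2%) and a median ratio of -4.23. All 7 peaks of GAPDH were depleted (medians -6.05 to -4.36), as were 6 of 7 of the triosephosphate isomerase TPI1 and 5 of 6 of the phosphoglycerate mutase PGAM1. In the hexokinase HK2 1 of all 9 peaks was depleted. Next came the tRNA synthetases, which charge tRNAs with amino acids, with 17 of 25 peaks (68.0%), among them 5 of 5 of NARS1 and 4 of 6 of AARS1. The proteasome had 17 of 28 (60.7%), including 6 of 6 of PSMD2. Histones and chromatin proteins had 19 of 34 (55.9%), all of them besides H1-10 and H2BC12 in the high mobility group genes HMGA1, HMGB3, HMGN1 and HMGN2. The cytoskeleton had 36 of 65 (55.4%), with 6 of 8 peaks of γ-actin ACTG1, 5 of 6 of β-tubulin TUBB and 5 of 6 of keratin KRT19. Chaperones had 59 of 117 (50.4%).

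The cytosolic ribosomal proteins had the lowest ratios of the groups, a median of -5.11, in 17 of 34 peaks (50%), while their other 17 peaks had a median of -0.45. Mitochondrial ribosomal proteins, which have the same task in another compartment, had 11 of 49 peaks depleted (22.4%) at a median of -2.07. Translation factors had 31 of 65 (47.7%), with 7 of 9 peaks of the elongation factor EEF2 at -5.26 to -2.18. Nuclear-encoded oxidative phosphorylation had 9 of 21 (42.9%), with 4 of 4 peaks of the ATP synthase β subunit ATP5F1B. Splicing and RNA-binding proteins had 56 of 135 (41.5%), and extracellular matrix and adhesion 38 of 103 (36.9%). The share was near that of all genes in pluripotency (14 of 59, 23.7%) and in solute carriers and ion pumps (42 of 208, 20.2%). It was 14.7% in endoderm and liver-type secreted proteins (5 of 34), 1.89% in the listed long noncoding RNA genes (2 of 106, SNHG8 and SNHG16) and 0 of 9 in islet endocrine genes. The long noncoding RNA list covers only part of that type, which held 26 depleted peaks in 13 genes. INS-IGF2 is not in the islet list. The other 104 peaks of the noncoding list had a median ratio of 1.38. These groups hold 399 of the depleted peaks, no test was run between groups, and their levels differ.

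**Figure D4:**
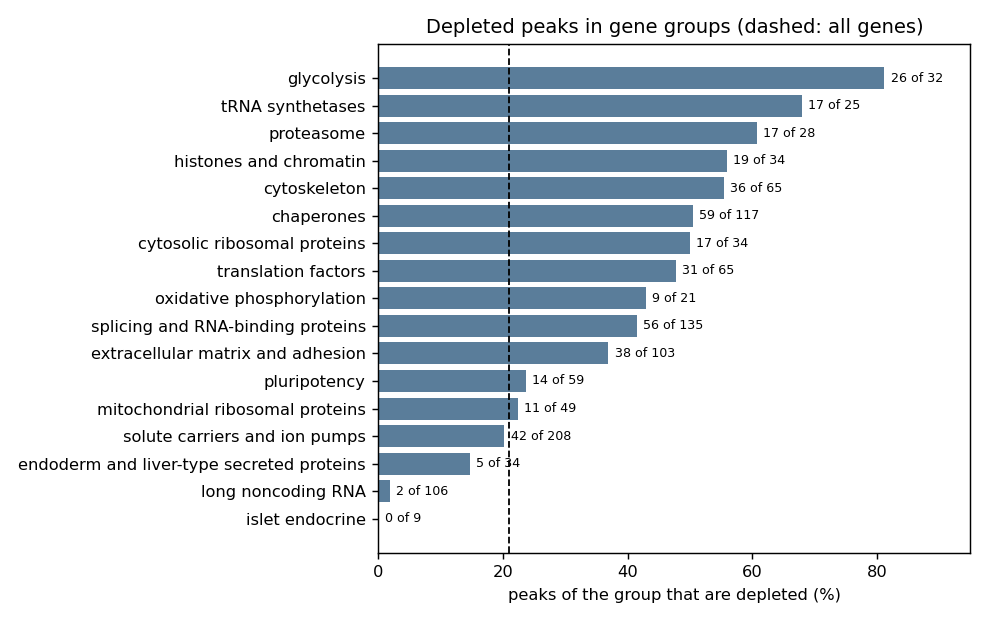
Share of the peaks of each of 17 gene groups that are depleted (%), with the number of depleted peaks and of peaks beside each bar and the share over all genes (21.0%) as a dashed line. Glycolysis is highest at 81.2%, and the listed long noncoding RNA genes (1.89%, only part of that type) and islet endocrine genes (0 of 9) are lowest.

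The input level shows how the RNA of these sites changed with differentiation. The choice of peaks used this level as a mean over all stages and as the denominator of the ratio, which cannot reach -1 below 1 CPM. A depleted peak therefore had at least 1 CPM in at least 14 of the 16 input libraries, and peaks absent from a whole stage cannot appear here. From S0 to S3, 244 of the depleted peaks rose and 462 fell by 2-fold or more (edgeR's quasi-likelihood test, adjusted p below 0.1). That was 27.3% in all, against 27.6% of the 26069 peaks tested, of which 14.6% rose and 13% fell. A fall was called in 251 genes and a rise in 165. From S3 to S4, 19 rose and 7 fell (1.01%, against 1.08% of all peaks, 0.786% up and 0.295% down). In H1 alone this turned to 44 rises and 64 falls, where 68.1% of the calls over all peaks were rises. From S4 to S6, 56 rose and 41 fell (3.76% against 3.74%, 1.86% up and 1.88% down). This balance turned to 38 rises and 58 falls without H1 S4 replicate 2 and to 133 and 214 in MEL1 alone, and without MEL1 S4 replicate 1 47 rose and 22 fell. The falls were 24 to 27 without either H1 S6 replicate, H1 S4 replicate 1, MEL1 S6 replicate 1 or MEL1 S4 replicate 2. Between S0 and S6, 281 rose and 501 fell (30.3% against 30.6%, 16.9% up and 13.8% down). DESeq2 called 726 depleted peaks (29.7% of all peaks), 45 (2.41%), 149 (5.86%) and 792 (32.2%) in the same order. The depleted peaks were thus called about as often as peaks in general. The mean input level had a median of 20.8 CPM in the depleted peaks and 6.94 CPM over all merged peaks, and few reads make a change harder to call. The shares were not compared at matched levels, so they do not show that the depleted peaks change as often. Of the calls, 51 of 706 from S0 to S3, 1 of 26 from S3 to S4, 6 of 97 from S4 to S6 and 53 of 782 between S0 and S6 were in peaks that reached the limit of 5 CPM only through the stage in which they were higher, so that these had to differ. Among the falls from S0 to S3 they were 3 of 14 in pluripotency, 3 of 16 in splicing, 2 of 33 in chaperones, 1 of 8 in translation factors and 1 of 6 in glycolysis. Between S0 and S6 they were 3 of 14, 3 of 21, 2 of 33, 1 of 12 and 0 of 4. Of the calls, 34.6% were rises from S0 to S3 and 35.9% between S0 and S6, where 52.9% and 55.0% of the calls over all peaks were rises. With library totals in place of trimmed-mean (TMM) factors the split was 57.1% and 60.3% rises, against 70.4% and 75.1% over all peaks, of which 29.3% and 32.1% were called. That scaling moved the median log2 change of all peaks to 0.28 and 0.38, from 0.00 and 0.04. Library totals without the mitochondrially encoded rows gave 39.4% and 36.4% rises, against 57.5% and 55.2% over all peaks. The lines also differed. The change from S0 to S3 differed between H1 and MEL1 in 1002 depleted peaks (38.8%, against 28.4% of all peaks), from S3 to S4 in 189 (7.32% against 5.76%), from S4 to S6 in 385 (14.9% against 9.27%) and between S0 and S6 in 691 (26.8% against 19.7%). These shares were not matched for input level either.

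Pluripotency genes supplied the steepest group fall. All 14 depleted peaks of this group, in LIN28A, DNMT3B, DPPA4 and PODXL, fell from S0 to S3 (median log2 change -2.0) and between S0 and S6 (-3.44), with TMM factors and with library totals. LIN28A, which blocks let-7 maturation, fell in 8 of 8 peaks, by -3.77 to -2.05 between S0 and S6. The 4 peaks of the de novo DNA methyltransferase DNMT3B changed by -5.38 to -4.42. In DNMT3B 1001 the input level was 54.9 and 54.7 CPM in H1 and 30.1 and 46.1 CPM in MEL1 at S0, and 1.35, 1.67, 0.336 and 2.19 CPM in the same order at S6. The 2 stages did not overlap, and the log2 change was -5.38. This peak and DPPA4 1997 are among 3 of the 14 that reached 5 CPM on average only through S0, so they had to be higher there and their falls are given without a test.

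PODXL 5725, in the transcript of the anti-adhesive sialomucin podocalyxin, fell at each step. Its input level was 1150, 1110, 1220 and 1120 CPM at S0 (H1 replicates 1 and 2, then MEL1 replicates 1 and 2), 511, 504, 473 and 405 at S3, 210, 189, 142 and 124 at S4, then 34.6, 30.3, 20.5 and 20.1 at S6. No 2 stages overlapped, and the lines lay close together at each. The log2 changes were -1.59 ± 0.19 to S3, -1.56 ± 0.19 to S4 and -2.68 ± 0.20 to S6, with adjusted p of 8.2e-06, 0.000607 and 1.8e-06 (SE, n = 4 per stage).

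Falls after S0 were frequent among the chaperone peaks and lay in a few of the genes. Of the 59 depleted chaperone peaks, 33 fell and 0 rose from S0 to S3 (median log2 change -1.32), and 33 fell and 3 rose between S0 and S6 (-1.24). With library totals the counts were 30 falls and 3 rises, and 27 falls and 7 rises. From S0 to S3 they lay in HSP90AA1, HSP90AB1, HSPD1, HSPA8, HSPA4, CCT4 and CCT7, and the other 12 genes of the group had none. HSP90AB1, the constitutive HSP90, fell in 7 of 7 peaks in both comparisons, HSP90AA1 in 9 of 9, and HSPD1, the chaperonin HSP60 of mitochondria, in 6 of 6. HSP90AB1 1051 had 4460, 4480, 4810 and 4360 CPM at S0, and 1880, 2020, 1390 and 1220 CPM at S3. All S3 values lay below all S0 values, with a log2 change of -1.81 ± 0.25 (adjusted p = 3.5e-05). At S6 the level was 2040, 2000, 1870 and 1590 CPM. Among the chaperones of the endoplasmic reticulum, singled out after their values were seen, none of the depleted peaks of CALR, PDIA3, PDIA4, PDIA6, CANX or HSPA5 was called lower in either comparison. Between S0 and S6, 2 of the 5 in CANX and 1 of the 2 in HSPA5 rose, but without MEL1 S0 replicate 1 no chaperone peak was called higher in this comparison.

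The tRNA synthetases followed, with 11 of 17 peaks lower and 0 higher both from S0 to S3 (median log2 change -1.42) and between S0 and S6 (-1.13), in AARS1, EPRS1, GARS1, LARS1 and NARS1. With library totals, 9 and 4 were lower. AARS1 2349 had 153, 161, 204 and 197 CPM at S0, 48.5, 47.9, 41.1 and 28.4 CPM at S3, and 111, 109, 74.5 and 55.5 CPM at S6. It was lowest at S3 and intermediate at S6, with a log2 change from S0 to S3 of -2.48 ± 0.31 (adjusted p = 1.3e-05). FARSA and QARS1 had no called peak.

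Of the 19 depleted peaks in histone and chromatin genes, 8 fell from S0 to S3 and 10 fell between S0 and S6, against 0 and 1 that rose. With library totals 4 and 9 fell. HMGA1, an architectural protein that binds AT-rich DNA, fell in 4 of 4 peaks between S0 and S6, and HMGB3 in 4 of 4, while H2BC12 was the peak that rose. HMGA1 851 had 4200, 4470, 2000 and 3020 CPM at S0 and 1200, 1170, 979 and 1200 CPM at S6. The 2 stages did not overlap (log2 change -1.86 ± 0.22, adjusted p = 7.3e-06). Splicing and RNA-binding proteins had 16 of 56 peaks lower and 0 higher from S0 to S3, and 21 lower and 0 higher between S0 and S6. DDX21, a helicase of ribosomal RNA synthesis, fell in 3 of 3 peaks and HNRNPAB in 5 of 5 in the second comparison, while DDX5 with 6 depleted peaks had none called. With library totals 1 peak of the group rose in each comparison and 10 and 15 fell.

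In the ribosomal protein, glycolysis, translation factor, proteasome and oxidative phosphorylation groups most peaks were not called at the input level. More of their calls were falls than rises from S0 to S3, unlike those of the cytoskeleton, whose counts are given with KRT19 below. Over all peaks 13% fell from S0 to S3 and 13.8% between S0 and S6. Of the 2582 depleted peaks, 462 and 501 fell. The small counts that follow are read against these. Cytosolic ribosomal proteins had 2 of 17 peaks lower and 0 higher from S0 to S3 and between S0 and S6, but 1 higher and 0 lower in the second comparison with library totals. In glycolysis 6 of 26 peaks fell and 0 rose from S0 to S3, and 4 rose and 4 fell between S0 and S6, or 7 and 4 with library totals. GAPDH, often used as a reference gene, had no called peak in either comparison (log2 changes -0.87 to 0.40). HK1, the hexokinase of most tissues, fell in 2 of 2 peaks from S0 to S3. ENO2, the neuronal enolase, fell in 2 of 3 peaks from S0 to S3 and rose in 2 of 3 from S4 to S6. At S6 the neural markers given above were also at their highest. Their part in the result was not tested. Translation factors had 8 of 31 peaks lower from S0 to S3 and 12 between S0 and S6, with 0 higher, or 5 and 4 lower with library totals. EIF4A2 fell in 3 of 4 peaks and EEF2 in 0 of 7. The proteasome had 3 and 5 of 17 peaks lower, oxidative phosphorylation 3 and 2 of 9 and mitochondrial ribosomal proteins 3 and 4 of 11, with 0 higher in each. With library totals these counts were 1 and 3, 1 and 0, and 2 and 1.

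Extracellular matrix and adhesion had the most rises of the 17 groups from S0 to S3 and between S0 and S6. Of its 38 depleted peaks, 18 rose and 1 fell from S0 to S3 (median log2 change 1.07), and 20 rose and 6 fell between S0 and S6 (1.09). Without MEL1 S0 replicate 1 the rises to S3 were 12. Markers of mesenchyme, of which 5 of 7 had a peak (COL3A1 and LUM had none), summed to 114 to 125 CPM at S0, 115 to 148 at S3, 82 to 710 at S4 and to between 226 and 305 at S6. Their part in the result was not tested. FN1, fibronectin of the extracellular matrix, rose in 4 of 4 peaks by 5.12 to 6.52 from S0 to S3, and fell in 4 of 4 from S4 to S6. FN1 3466 had 27.4, 24.5, 30.7 and 25.4 CPM at S0, 941, 997, 1450 and 1320 CPM at S3, 711, 608, 1450 and 1330 CPM at S4, then 241, 229, 590 and 550 CPM at S6. Every later value lay above every value of S0, and those of S6 below those of S3 and S4, with log2 changes of 5.12 ± 0.31 (adjusted p = 2.5e-09) and -1.39 ± 0.26 (adjusted p = 0.00647). The collagens COL11A1 and COL18A1 rose in 3 of 3 peaks each and laminin β2, LAMB2, in 3 of 5 from S0 to S3. The integrin subunits ITGB1, in 4 of 6 peaks, and ITGB5, in 2 of 2, fell between S0 and S6. With library totals the group had 21 rises and 1 fall from S0 to S3, and 24 rises and 3 falls between S0 and S6. In other groups, KRT19 rose in 5 of 5 peaks by 2.40 to 2.80 from S0 to S3, and SLC2A1, the glucose transporter GLUT1, rose in 4 of 4 by 1.75 to 2.59 between S0 and S6. The cytoskeleton group of KRT19 had 6 rises and 4 falls among 36 peaks from S0 to S3, and 6 and 3 between S0 and S6. Solute carriers and ion pumps, the group of SLC2A1, had 2 rises and 3 falls among 42 peaks, then 6 and 7. With library totals the cytoskeleton had 8 and 1, then 7 and 2, and the solute carriers 3 and 1, then 8 and 4. SLC2A1 2375 had 36.1, 46.8, 41.0 and 47.6 CPM at S0 and 270, 247, 245 and 205 CPM at S6, without overlap (log2 change 2.15 ± 0.41, adjusted p = 0.00065).

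Among the largest rises of single peaks were those of INS-IGF2 and APOA1. INS-IGF2, a readthrough gene that spans insulin and IGF2 and whose peaks may therefore hold reads of either gene, had 2 named peaks. At INS-IGF2 727 the input level was 1.60, 1.31, 0.00 and 0.187 CPM at S0, 444, 378, 87.7 and 128 at S3, 136, 113, 217 and 224 at S4, then 682, 685, 942 and 941 CPM at S6. All S6 values were above all others, and the order of the lines turned between S3 and S6. The log2 change was 8.20 ± 0.75 to S3 (adjusted p = 3.0e-07) and 9.91 ± 0.79 between S0 and S6 (adjusted p = 6.0e-08), with 8.41 in H1 and 12.9 in MEL1, where S0 had almost no reads. Its ratio was above -1 in the MEL1 S0 preparations (0.57 and -0.25) and between -5.51 and -2.25 from S3 on. The gene ENSG00000284779, for which no symbol was matched, may hold reads of insulin or IGF2 as INS-IGF2 may, so it is not taken as a separate rise. From S3 to S4 its peak at 3502 had log2 changes of -1.92 in H1 and 1.72 in MEL1, beside -1.83 and 1.67 for INS-IGF2 277. The ENSG00000284779 peak at 3502 rose from 8.69, 7.44, 2.33 and 4.30 CPM at S0 to 3050, 3090, 5020 and 5380 CPM at S6.

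APOA1 575, in the transcript of the main protein of high-density lipoprotein, had 2.74, 1.09, 7.27 and 5.42 CPM at S0 and 241, 253, 13100 and 12500 CPM at S3. At S4 it had 118, 97.5, 15100 and 15000 CPM, and at S6 70.5, 66.8, 981 and 983 CPM. The lines differed by more than 10-fold at S3, S4 and S6, with MEL1 higher in each. The log2 change from S0 to S3 was 9.07 ± 0.93 (adjusted p = 1.1e-06), 6.81 in H1 and 10.56 in MEL1 (adjusted p of the difference 1.9e-06). The change from S4 to S6 was -2.67 ± 0.67 (adjusted p = 0.0375), lost without either MEL1 S6 replicate (-2.44) and at -0.69 in H1. The liver marker list, which holds APOA1, moved with it, and its part in the result was not tested.

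Some peaks fell early and came back. IFITM1 351, from an interferon-induced membrane protein that restricts virus entry, had 609, 665, 427 and 585 CPM at S0, 34.6, 33.0, 14.5 and 18.8 at S3, 36.4, 49.0, 30.9 and 31.2 at S4, then 1020, 1030, 115 and 105 CPM at S6. S3 and S4 lay below all values of S0 and S6, and at S6 H1 was higher than MEL1. The log2 changes were -4.92 ± 0.46 to S3 (adjusted p = 3.7e-07) and 3.41 ± 0.44 from S4 to S6 (adjusted p = 0.000179), and the latter was 4.54 in H1 and 1.83 in MEL1 (adjusted p of the difference 2.1e-08). IFITM2 1251 followed the same course, with -4.94 and 3.68. SCNN1A 727, from the α subunit of the epithelial sodium channel, had 18.1, 22.1, 39.7 and 42.8 CPM at S0, 0.665 to 4.26 CPM at S3 and S4, and 15.7, 21.7, 60.1 and 71.1 CPM at S6 (log2 change from S4 4.00 ± 0.52, adjusted p = 0.000201). AASS, which starts lysine breakdown, did not return: its peak at 1092 had 63.4, 69.2, 58.3 and 40.7 CPM at S0 and 4.04, 3.34, 1.01 and 0.00 CPM at S6 (log2 change -5.39 ± 0.45, adjusted p = 1.0e-07).

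Few peaks were called between S3 and S4. Of the 26, 17 were also called in H1 alone and 16 in MEL1 alone. The cell cycle gene CCND2, cyclin D2, rose in 3 named peaks by 2.69, 3.14 and 2.74. CCND2 1701 had 9.21, 10, 4.35 and 3.28 CPM at S3 and 17.2, 18.9, 103 and 106 CPM at S4. The S4 values lay above those of S3 in both lines, by a log2 change of 0.70 in H1 and 4.92 in MEL1 (adjusted p of the difference 1.8e-08). In H1 alone the call was lost at 451 and 1701 and kept at 1251. MYBL2, a transcription factor of S phase genes, fell, with a log2 change at 351 of -0.76 in H1 and -2.26 in MEL1 (adjusted p of the difference 0.00238). The change in H1 was below 2-fold, and MYBL2 lost its call in some of the refits counted below. The 26 calls became 8 or 9 without 1 of the MEL1 S3 replicates, and 13 to 15 without either MEL1 S4 replicate or without H1 S3 or S4 replicate 2.

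**Figure D5:**
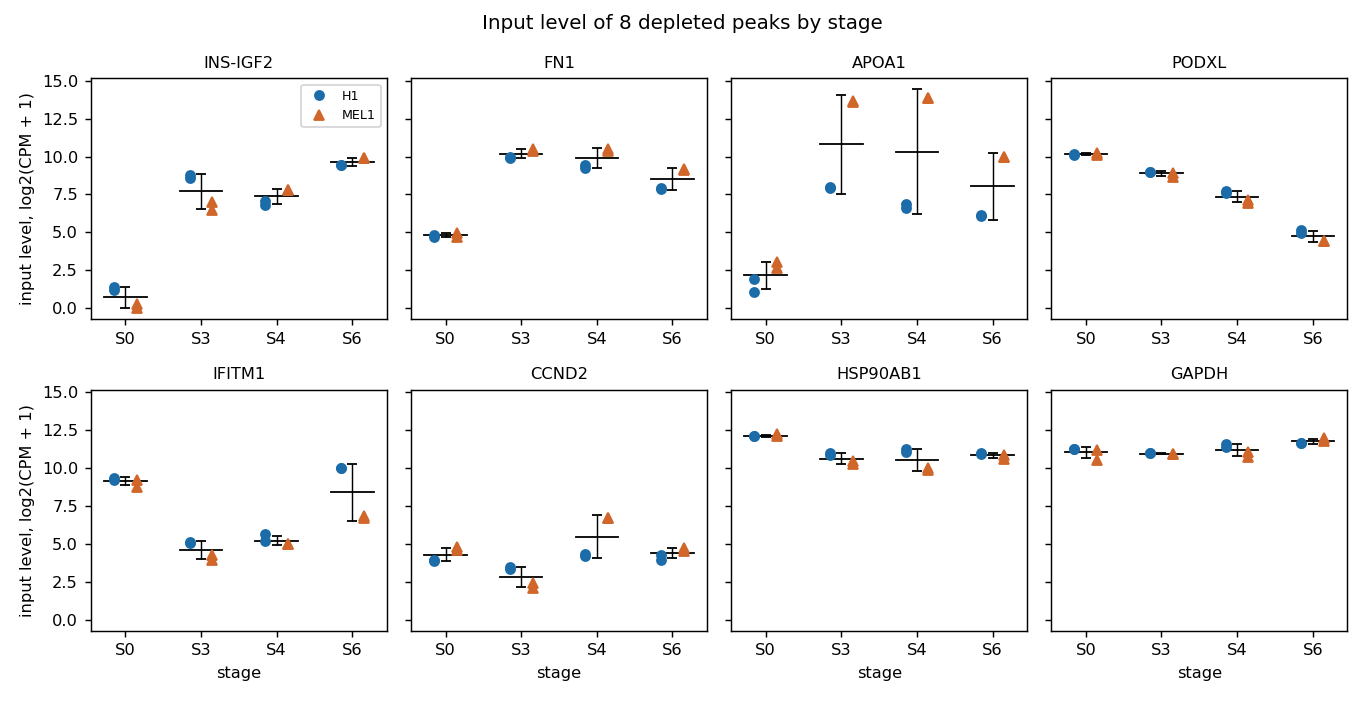
Input level, as log2(CPM + 1), of 8 depleted peaks by stage (INS-IGF2 727, FN1 3466, APOA1 575, PODXL 5725, IFITM1 351, CCND2 1701, HSP90AB1 1051 and GAPDH 1951), with circles for H1, triangles for MEL1 and the mean with its SD as black lines. PODXL falls at each step from 1150 CPM at S0 to 26.4 CPM at S6, GAPDH lies between 1480 and 4090 CPM in the 16 input libraries, and APOA1 separates the lines after S0.

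The choice of peaks used the ratio of IP to input and bounded it, so calls on this ratio are no independent test of these peaks. Their counts, their shares beside all peaks and the fitted changes are a description, from which no conclusion about the stages is drawn. From S0 to S3, 0 were called by edgeR's quasi-likelihood test (0.0498% of the 26104 peaks tested, 0.0306% up and 0.0192% down). DESeq2 called 50 (0.64% of all peaks), and edgeR with library totals 3 (0.069%).

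From S3 to S4, 62 rose and 122 fell (7.13% against 6.6% of all peaks, 0.751% up and 5.85% down). With the relative log expression (RLE) factors of edgeR 85 rose and 29 fell (2.33% of all peaks called), with DESeq2 287 rose and 91 fell (7.74%), and with library totals 51 rose and 65 fell (2.89%). The median log2 change of all peaks was -0.36 with TMM factors and 0.12 with RLE factors, so the direction of these calls depends on the scaling. It also turned without H1 S4 replicate 1, where 32 rose and 9 fell. The count of 184 was 41 without that sample, 84 and 90 without H1 S3 replicates 2 and 1, 76 and 103 without MEL1 S3 replicates 2 and 1, and 283 without MEL1 S4 replicate 1. From S4 to S6, 254 were called (9.84% against 7.58%, 5.31% up and 2.26% down), of which 103 rose and the others fell. RLE factors gave 63 rises and 234 falls (6.41% of all peaks called), DESeq2 106 and 448 (13.2%) and library totals 95 and 152 (6.13%). The count of 254 was 125 and 131 without H1 S6 replicates 1 and 2, and 118 and 126 without MEL1 S6 replicates 1 and 2. The balance turned to 66 rises and 52 falls without MEL1 S6 replicate 1, to 68 and 58 without replicate 2, and to 78 and 71 with a replicate block of each preparation.

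Between S0 and S6, 0 rose and 90 fell (3.49% against 1.26%, 0.0766% up and 1.18% down). The choice of peaks limits how high a ratio can be, so neither this share nor its direction is read as a result. RLE factors gave 24 falls (0.341% of all peaks called), library totals 181 (2.67%), and DESeq2 15 rises and 306 falls (6.03%). The count of 90 was 0 to 2 without any 1 of the MEL1 S0 or MEL1 S6 replicates, 14 or 15 without either H1 S6 replicate or H1 S4 replicate 1, 31 without either H1 S3 replicate, and 137 or 146 without either MEL1 S4 replicate. It was 17 with a replicate block and 8 with a replicate block of each preparation.

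The falls named next were picked from these calls and are a description, since the choice of peaks bounded this ratio. Among the falls between S0 and S6, PSMD7 2001, from a lid subunit of the proteasome, had ratios of -1.82, -2.06, -1.79 and -1.81 at S0 and -3.18, -3.39, -2.93 and -3.00 at S6. The fitted log2 change was -1.15 ± 0.31 (SE). HSP90AA1 3099 went from -2.61, -2.77, -2.11 and -1.79 to -4.25, -4.40, -4.09 and -4.09 (change -1.72 ± 0.46). HNRNPAB 1051 went from -3.89, -3.70, -2.33 and -2.41 to -5.25, -5.09, -4.58 and -4.64 (change -2.36 ± 0.64). The input level of PSMD7 2001, HSP90AA1 3099 and HNRNPAB 1051 was also called lower between S0 and S6. By group, 4 of 59 chaperone, 3 of 17 proteasome, 2 of 56 splicing, 2 of 38 extracellular matrix, 1 of 11 mitochondrial ribosomal, 1 of 36 cytoskeleton and 1 of 42 solute carrier peaks were called lower in this comparison. The share called lower was 3.49% over all depleted peaks and 1.18% over all peaks. Of the 14 pluripotency peaks, 0 were called. For the pluripotency peaks the median of the fitted log2 changes in the ratio was -0.09. Their median ratio with the pseudocount averaged -4.05 ± 0.28 over the S0 preparations and -2.46 ± 0.39 at S6 (SD, n = 4), where their input level was low and the pseudocount limits how negative a ratio can be. That of the extracellular matrix peaks, whose input level was low at S0, averaged -2.07 ± 0.29 there and -3.25 ± 0.09 at S6, while the median of their fitted changes was -0.82, against -0.66 over all depleted peaks.

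The ratios of PODXL 5725 were -1.19, -1.14, -1.48 and -1.49 at S0, -2.09, -1.94, -2.13 and -1.82 at S3, -5.12, -4.54, -2.55 and -1.90 at S4, then -1.85, -1.73, -2.13 and -1.58 at S6. The fitted log2 change over both lines was -1.69 ± 0.44 from S3 to S4 and 1.70 ± 0.45 from S4 to S6 (SE). The H1 S4 values lay below all others, while in MEL1 the S4 values overlapped those of S3 and S6, and the difference between the lines in this ratio was not tested.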

How the data were processed

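The authors purified mRNA with oligo(dT) beads, fragmented it by sonication, kept part as input and immunoprecipitated the rest with an m6A antibody. Stranded libraries were sequenced, reads were counted in 50-bp bins of each gene (Ensembl version 94), and peaks were called, merged and counted with MeRIPtools. Aligner, genome build and strand setting are not given in the sources used here. The deposited table holds raw read counts of 26104 merged peaks in 32 libraries, each named by gene and start. It gives no peak end, so widths, planned for the description, were not analysed here.

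CPM were taken from column totals, and ratios with a pseudocount of 1 CPM. Stage changes were tested on the deposited counts with the quasi-likelihood test of edgeR 4.0.16 (R 4.3.3), with TMM factors: the input with stage and cell line over 16 libraries, and the ratio in a joint fit of all 32, as the stage effect on IP relative to input. The study used DESeq2, here an alternative (1.42.0). Peaks with a total of at least 10 reads were tested, p-values were adjusted by Benjamini-Hochberg over all of them, and calls needed an adjusted p under 0.1 and a fold of at least 2. Differences between lines were tested as an interaction, called at the same limits. The scripts were tested on simulated data.

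Replicates of a stage differed by 1.7 to 23.2 times counting noise (chi-square per degree of freedom), and no pair looked like 1 library counted again. The p-values of the stage changes treat the 4 samples of a stage as independent, although each line gave 2 of them. The spread behind these p-values pools that between replicates with any unlike course of H1 and MEL1. Where the lines moved apart, each line is thus counted as 2 cultures, and the p-values may be too small. Replicate numbers were not taken to pair samples across stages, since same-numbered samples deviated together in MEL1 only. Gene types came from a RefSeq table. The members, gene groups and named peaks were chosen with earlier results of these data known. Named were the 5 peaks with the highest input, the 5 with the lowest ratio, the 3 on either side of the limit, the 3 largest rises and falls per comparison that moved alike in the 4 pairs of same-numbered samples of a line (used for naming only), up to 4 examples per group, and 5 genes with the widest contrast between peaks. Some peaks that these rules name are not reported here. Alternatives were other factors, tools, filters, covariates, each line alone and each replicate left out.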

Additional observations from a re-analysis of the deposited data

Results flagged for a closer look

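For each named peak, the input level (log2 of CPM + 1) and the log2 ratio of IP to input of the 4 samples of a stage were searched for a sample that stands apart, the share of the stage's range taken by its gap to the nearest other sample exceeding Dixon's 95% critical value. Of 576 groups of 4 samples, 29 (5.03%) held such a sample, and chance alone gives about 1 in 20.

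In the input level, MEL1 S0 replicate 1 stood apart in GAPDH 1951 (10.53), TPI1 1301 (9.69), SPARC 3982 (6.57) and DNMT3B 1201 (6.25), below the other S0 samples in each. H1 S4 replicate 2 stood apart in ACTG1 1244 (12.30) and SNRPB 1029 (7.40). MEL1 S6 replicate 1 did so in HMGA1 851 (9.94) and SLC25A6 865 (8.57), MEL1 S6 replicate 2 in TMSB4X 1101 (11.03), and MEL1 S3 replicate 2 in SLC25A6 865 (8.90).

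In the ratio, most of the samples that stood apart were MEL1. At S0 they were MEL1 replicate 1 in CCND2 1251 (-2.50), MEL1 replicate 2 in EEF1G 617 (-4.34) and NDUFA8 645 (-4.73), and H1 replicate 2 in PSMD7 2001 (-2.06). At S3, MEL1 replicate 1 stood apart in INS-IGF2 727 (-4.00), CCND2 451 (-0.98) and PSMD7 2001 (-3.25), and MEL1 replicate 2 in PSMB5 166 (-2.03), FN1 3466 (-4.36) and AGRN 3051 (-5.41). At S4, where the MEL1 IP libraries were shallow, MEL1 replicate 1 stood apart in IFITM1 351 (-2.92), MYBL2 1151 (-3.33) and SNHG8 701 (-1.90), and MEL1 replicate 2 in MRPS2 901 (0.58), NECTIN2 751 (-1.80) and U2AF2 1601 (-2.06). At S6 they were MEL1 replicate 1 in ACTG1 1244 (-5.34) and MEL1 replicate 2 in RPL10A 951 (-6.13) and NDUFA8 645 (-4.09).

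The stage change of the input level differed between H1 and MEL1 in 15 of the 24 rises and falls named (interaction in edgeR's quasi-likelihood test, adjusted p under 0.1 and at least 2-fold). The log2 change in H1 minus that in MEL1 was -4.65, -4.22 and -3.95 for CCND2 1251, 1701 and 451 from S3 to S4, and 1.86 and 1.5 for MYBL2 1151 and 351. From S4 to S6 it was 3.24 for APOA1 575, 2.71 for IFITM1 351, 1.97 for IFITM2 1251, 2.46 for AASS 4242 and -1.98 for SCNN1A 727. From S0 to S3 it was -3.74 for APOA1 575. Between S0 and S6 it was -4.49 and -2.80 for INS-IGF2 727 and 277, -2.29 for ENSG00000284779 3502, which may share reads with INS-IGF2, and 2.18 for AASS 1092. Adjusted p ranged from 2.04e-09 for APOA1 575 from S4 to S6 to 0.0664 for SCNN1A 727.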

How the results depend on the processing

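No named rise or fall changed its direction in these refits: of 672 refits of the 24, 22 lost the call, all in APOA1 575 (S4 to S6), MYBL2 and CCND2. The 24 were named as the largest changes that moved alike in every pair of same-numbered samples. That choice largely fixed the unchanged direction, which is therefore no test of stability. The falls of DPPA4 1997 and DNMT3B 1001 are among the 24, and the level limit also fixed their direction, so their refits say nothing about stability. The number of depleted peaks was 1314 when all 16 preparations had to pass and 1691 at a limit of -1.5. The counts of called depleted peaks that moved by over 1.5 times follow, each with the count over all peaks in brackets. The input count from S0 to S3 was 1197 (10114) in MEL1 alone. From S3 to S4 it was 45 (628) with DESeq2, 5 (38) without the line term, 17 (168) with a replicate block, 52 (716) from the 8 libraries compared only, 108 (1689) in H1 alone and 164 (1505) in MEL1 alone. From S4 to S6 it was 149 (1528) with DESeq2, 31 (292) without the line term, 154 (1600) from the 8 libraries compared only, 275 (2725) in H1 alone and 347 (2644) in MEL1 alone. The ratio count from S0 to S3 was 50 (167) with DESeq2, 3 (18) with library totals, 324 (1590) in H1 alone and 498 (2298) in MEL1 alone. From S3 to S4 it was 378 (2020) with DESeq2, 114 (607) with RLE factors, 116 (754) with library totals, 89 (832) without the line term, 1369 (12054) in H1 alone and 500 (3312) in MEL1 alone. From S4 to S6 it was 554 (3449) with DESeq2, 144 (1135) without the line term, 149 (1780) with a replicate block of each preparation, 1277 (10847) in H1 alone and 439 (3010) in MEL1 alone. Between S0 and S6 it was 321 (1573) with DESeq2, 24 (89) with RLE factors, 181 (696) with library totals, 13 (40) without the line term, 17 (73) with a replicate block, 8 (47) with a replicate block of each preparation, 436 (2807) in H1 alone and 578 (2843) in MEL1 alone. The cause was not tested.

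Same-numbered input samples deviated together across stages in MEL1 (6 correlations of 0.144 to 0.25) and not in H1 (6 of -0.083 to 0.056). The replicate numbers were therefore not taken to pair the samples, and the counts with the block stand as a hint from the data. With 1 replicate left out, depleted peaks numbered 2580 to 2888, input changes 588 to 825, 8 to 32, 68 to 130 and 687 to 886, and ratio changes 0 to 1, 41 to 283, 118 to 331 and 0 to 146, in the order S0 to S3, S3 to S4, S4 to S6 and S0 to S6. Depth limits the ratio most in the MEL1 S4 IP libraries, where the median depleted peak had 3 or 4 reads.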
